A study of Mus musculus with 37 samples.

Results

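Oscillospirales is an order of strictly anaerobic gut bacteria, and its members in the stool of adolescent mice are described here by family, genus and amplicon sequence variant. A sequence variant is one distinct 16S rRNA gene sequence, and a variant was counted as a member where the deposited taxonomy placed it in the order Oscillospirales. This gave 646 of the 6085 bacterial variants kept (10.6%), with 806416 of 16138707 reads (5.0%). The members fell under 8 family-level and 28 genus-level names. The 37 libraries held DNA of the V3–V4 region of the 16S rRNA gene from stool of C57Bl/6 mice. In the prenatal alcohol exposure (PAE) group the dams drank 10% ethanol for the opening 10 days of gestation and water afterwards, while control dams had water throughout. There were 11 control male, 10 PAE male, 7 control female and 9 PAE female libraries.

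As background, many Oscillospirales ferment dietary fibre, resistant starch or amino acids, and several form butyrate, the short-chain fatty acid that colon epithelial cells burn as their main fuel. Oscillospiraceae and Ruminococcaceae are the large families of the order in mouse stool, and Butyricicoccaceae carry the type genus Butyricicoccus, a butyrate former of the mucus layer. Many mouse lineages of the order have no cultured representative, which is why codes such as UCG-010 and NK4A214_group stand in for genus names. The taxonomy left 264 of the 646 variants without a genus name, and these held 34.8% of the order's reads.

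Values are shares, the percent of a library's kept reads, so a lower share can come from fewer cells of a taxon, fewer 16S copies recovered per cell or more of other bacteria, and these cannot be told apart. Kept reads ranged from 102655 to 1813222 per library, and Bacteroidota plus Firmicutes, the phyla that dominate mouse stool, held 82.9% to 97.8%. Library numbers came in runs that never mixed the exposures (controls 1 to 10 and 30 to 37, PAE 11 to 19 and 20 to 29), so the run of numbers and the exposure cannot be told apart. The labels name no dam, litter, cage or sequencing batch, so each library was taken as independent and p-values measure the spread between libraries. For libraries 5 and 6, both control male, the title and the description exchange names, and their columns are used only as control males. A set of 9 libraries stood apart from the other 28 in having reads of Robinsoniella (a Lachnospiraceae genus) and few sequence variants. They were control females 3 and 10, PAE males 20 to 24 and PAE females 27 and 28, and fold changes without them are given beside the families and genera that moved most.

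The order had few common variants and many rare ones. Of the 646 variants, 455 (70.4%) were each found in only 1 library, and these held 0.605% of the order's reads. The 105 variants found in both exposures held 89.3% of the reads. Another 363 variants had reads in controls and none in PAE libraries (8.43% of reads), and 178 had reads in PAE libraries and none in controls (2.23%). These counts were made at unequal depth, and the same split over all 6085 variants is not given here. They are therefore a description and no result about the order. Of the families, Oscillospiraceae had 378 variants and 57.6% of the order's reads, Ruminococcaceae 172 variants and 25.8%, and Butyricicoccaceae 45 variants and 13.1%. The [Eubacterium]_coprostanoligenes_group (17 variants) held 2.21% and UCG-010 (14 variants) 1.18%. Less than 0.1% of the order's reads lay in the remaining family-level names, which were unclassified Oscillospirales, UCG-011 and a family named Oscillospirales whose reads were all Hydrogenoanaerobacterium.

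The share of the whole order was low in part of the PAE males and was not called between exposures. In control males it was 6.74% ± 2.18 (SD, n = 11), with 5.09% in the lowest library, 6.01% at the median and 12.7% in the highest. In PAE males it was 4.13% ± 2.97 (n = 10), from 0.899% through a median of 2.95% to 8.65%. The groups overlapped, although 7 of 10 PAE males lay below every control male. The edgeR quasi-likelihood test gave a log2 fold change of -0.47 ± 0.33 (SE, adjusted p = 0.454), and 0.0% of the 43 orders tested in males were called, that is had an adjusted p under 0.05. In females the shares were 4.37% ± 0.94 (n = 7, 2.98% to 5.54%) in controls and 5.21% ± 2.70 (n = 9, 1.01% to 9.0%) in PAE. Of the PAE females 5 lay above and 2 below every control female, and the log2 fold change was -0.02 ± 0.38 (edgeR adjusted p = 0.980, 4.65% of orders called). Without the 9 libraries apart the log2 fold changes were -0.29 (adjusted p = 0.818) in males and 0.48 (adjusted p = 0.678) in females, a turned sign in females.

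**Figure D1:**
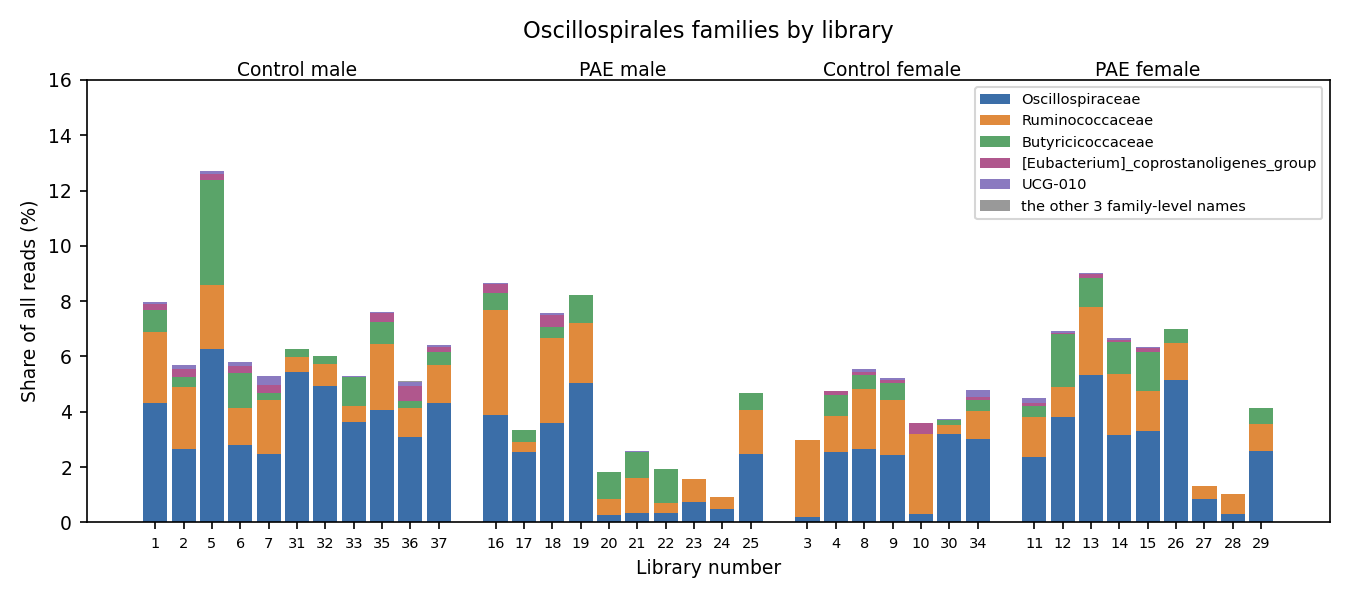
Stacked bars give the share of all reads (percent, axis from 0) held by each Oscillospirales family in each of the 37 libraries, in blocks by group, with the library number under each bar. PAE males 20 to 24 and PAE females 27 and 28 had the 7 lowest totals, from 0.899% to 2.56%, and the bars of control females 3 and 10 were mostly Ruminococcaceae.

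The number of Oscillospirales variants separated the libraries more sharply than the share did. Every library was thinned to 102655 reads, the depth of the shallowest, before variants were counted. Control males then had 59 to 144 variants of the order (median 99) and PAE males 12 to 92 (median 37). Control females had 28 to 128 (median 64) and PAE females 10 to 91 (median 77). The 9 libraries apart held 10 to 40 variants, and the other 28 held 57 to 144, so the ranges did not meet. Within the 9, the 7 PAE libraries had 10 to 16, and control females 3 and 10 had 28 and 40. With the 9 left out, medians were 99 in control males, 84 in PAE males (n = 5), 88 in control females (n = 5) and 84 in PAE females (n = 7), with overlapping ranges. Other orders also had fewer variants in these libraries, 178 to 264 against 309 to 549, but Oscillospirales were a smaller part of the variants present there: 4.46% to 14.3% in the 9 and 13.4% to 22.3% in the 28. The 9 were recognised from the data, so these ranges are a description without a test. Among controls 30 to 37, libraries 30 to 33 had 57 to 66 variants of the order and libraries 34 to 37 had 126 to 144, with no library in between.

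**Figure D2:**
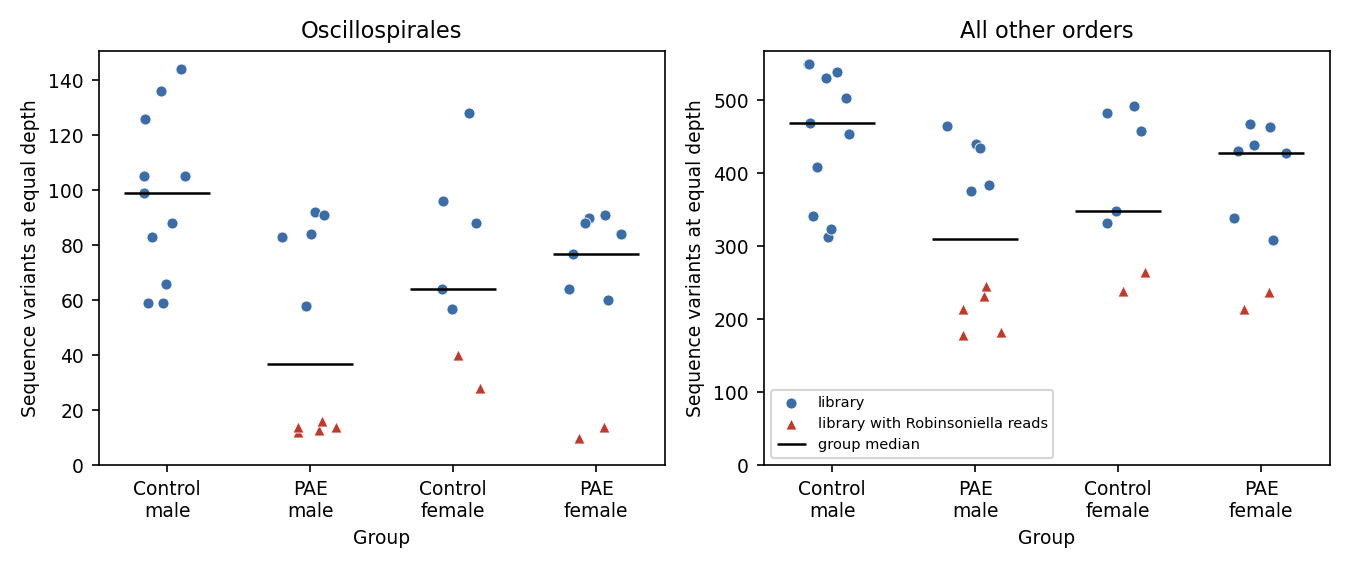
Points give the number of sequence variants per library after thinning to 102655 reads, for Oscillospirales on the left and all other orders on the right, by group; triangles mark the 9 libraries with Robinsoniella reads and lines the group medians. The triangles lie below all circles in both panels, at 10 to 40 Oscillospirales variants.

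No family of the order was called between exposures. In males 0 of 6 tested families were called against 5.0% of the 60 families tested over all bacteria, and in females 0 of 6 against 1.67%. At an unadjusted edgeR p under 0.05 there was 1 family in males (UCG-010) and 0 in females, beside 10 and 6 of all 60 families. DESeq2 called 0 in each sex, beside 4 and 3 of all 60. Oscillospiraceae held 3.995% ± 1.22 in control males (2.48% to 6.28%, median 4.06%) and 1.97% ± 1.77 in PAE males (0.276% to 5.03%, median 1.61%), with 6 of 10 PAE males below every control (log2 fold change -0.92 ± 0.54, edgeR adjusted p = 0.345). Without the libraries apart the PAE male mean was 3.51% ± 1.06 (n = 5) and the log2 fold change -0.43 (adjusted p = 0.661). In females the family held 2.04% ± 1.26 in controls and 2.98% ± 1.71 in PAE (log2 fold change 0.49 ± 0.62, adjusted p = 0.922).

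The remaining families also varied widely within groups. Ruminococcaceae, which include fibre and cellulose degraders, held 1.55% ± 0.76 in control males and 1.44% ± 1.22 in PAE males (log2 fold change 0.07 ± 0.45, adjusted p = 0.910). In females they held 1.79% ± 0.94 in controls and 1.35% ± 0.65 in PAE (log2 fold change -0.20 ± 0.52, adjusted p = 0.986). Butyricicoccaceae held 0.879% ± 1.04 in control males, 0.628% ± 0.429 in PAE males, 0.348% ± 0.293 in control females and 0.777% ± 0.643 in PAE females, and neither sex passed the test (adjusted p = 0.910 and 0.922). UCG-010, an uncultured lineage, was found in all 11 control males (0.00362% to 0.313%, median 0.0713%) and in 4 of 10 PAE males (up to 0.0626%). For UCG-010 in males the log2 fold change was -3.12 ± 1.52 with an edgeR adjusted p of 0.287. The [Eubacterium]_coprostanoligenes_group, named after a cholesterol-reducing bacterium, had reads in 8 of 11 control males, 4 of 10 PAE males, 6 of 7 control females and 5 of 9 PAE females, and 0 in all 7 PAE libraries apart (adjusted p = 0.631 and 0.922). With the libraries apart left out, Ruminococcaceae had log2 fold changes of 0.34 in males and 0.19 in females, a turned sign in females, and Butyricicoccaceae -0.58 and 0.99. For UCG-010 the male value was then -2.33, and for the [Eubacterium]_coprostanoligenes_group the values were -0.78 and -0.53.

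The families also shared out the order differently in the libraries apart. In the 28 other libraries Oscillospiraceae made up 44.8% to 86.4% of the order's reads, and Ruminococcaceae 8.79% to 43.8%. In control females 3 and 10 Ruminococcaceae made up 93.3% and 80.5%, and Oscillospiraceae 6.04% and 7.97%. Butyricicoccaceae made up 54.3%, 37.1% and 64.5% in PAE males 20, 21 and 22, and 0.321% or less in the other 4 PAE libraries apart, against 4.36% to 30.1% in the 28. Among controls 30 to 33 the Oscillospiraceae part was 68.3% to 86.4%.

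Of the 28 genus-level taxa, 21 had enough reads to be tested (at least 5 reads in at least 7 libraries), among 112 genera over all bacteria. In males 1 of the 21 was called higher in PAE (Flavonifractor) and 1 lower (Intestinimonas), against 11.6% of all genera called. In females 1 was called lower (Intestinimonas) and 0 higher, against 2.68%. Over the 21 the median log2 fold change was -0.91 in males and -0.41 in females, beside -0.28 and -0.13 over all 112 genera. In each sex 14 of 21 (66.7%) were below 0, beside 57.1% of all genera in males and 52.7% in females. Without the libraries apart edgeR called 0 of 19 tested genera in either sex, beside 1 of 100 genera over all bacteria in males and 0 in females. At an unadjusted p under 0.05 there were 2 in males and 1 in females, beside 5 and 12 of the 100. With the runs of library numbers as a random block in limma 0 of the 21 were called. With PAE 11 to 19 as the only PAE libraries 0 were called in either sex. With PAE 20 to 29 alone 7 of 21 were called in males, among 23 of 110 genera over all bacteria, and 3 in females, among 7 of 110. Intestinimonas was not among those 3.

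**Figure D3:**
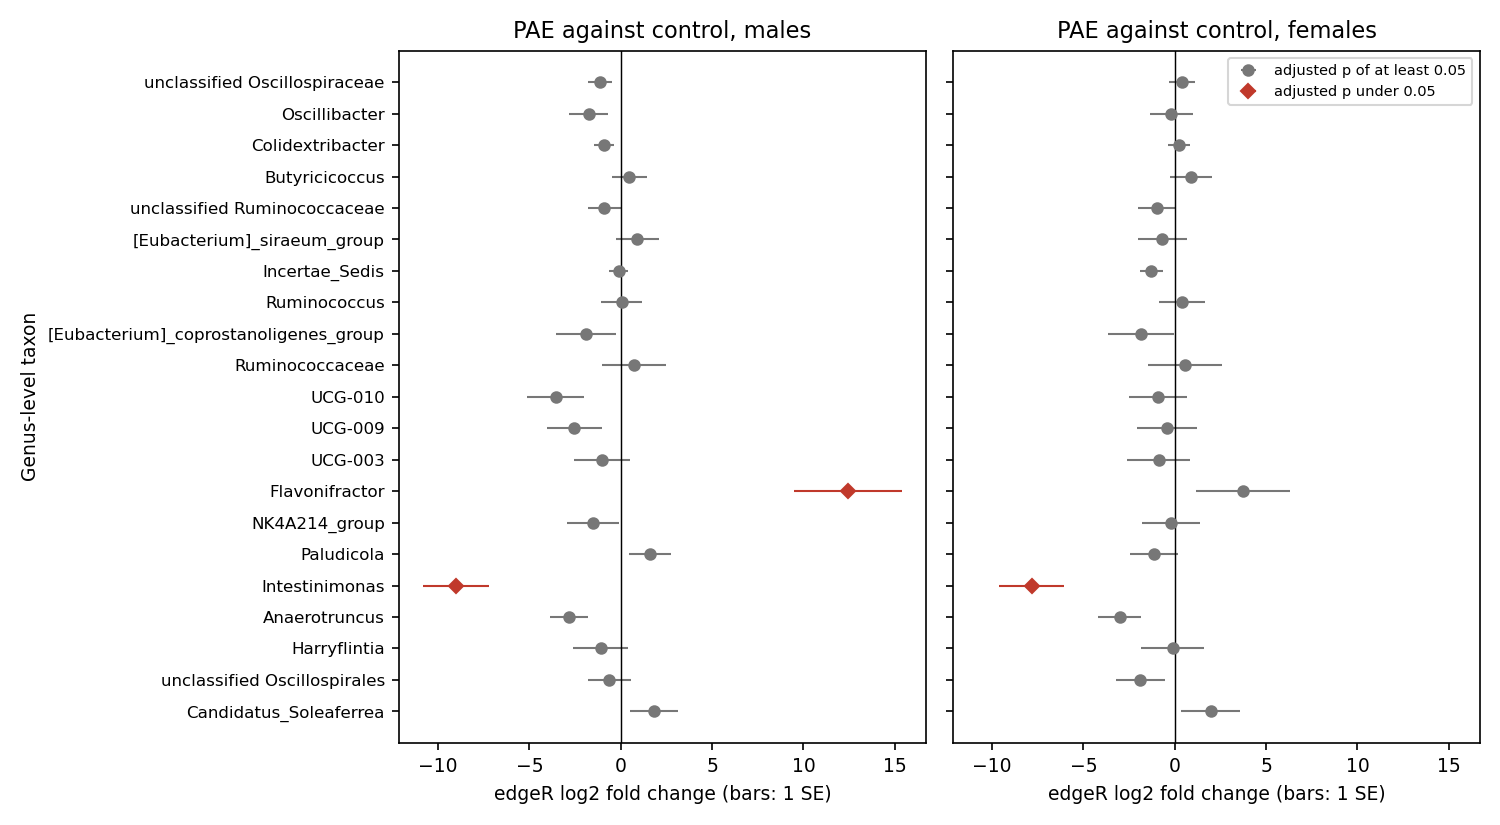
Diamonds and circles give the edgeR log2 fold change of PAE against control for the 21 tested genera, ordered by mean share, in males on the left and females on the right, with bars of 1 SE. Intestinimonas, at -9.02 in males and -7.82 in females, and Flavonifractor in males, at 12.45, are the diamonds with an adjusted p under 0.05.

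Butyrate-forming genera of the order were taken from a list of 9, of which Butyricicoccus, Intestinimonas, Flavonifractor and Anaerotruncus had reads, and Faecalibacterium, Pseudoflavonifractor, Subdoligranulum, Agathobaculum and Lawsonibacter are listed with 0 reads. Of the 4 tested, 1 rose and 1 fell in males (11.6% of all genera called) and 1 fell in females (2.68%), with a median log2 fold change of -1.19 in males and -1.06 in females. Their summed share was 0.894% ± 1.02 in control males, 0.720% ± 0.396 in PAE males, 0.385% ± 0.258 in control females and 0.790% ± 0.590 in PAE females, with overlapping ranges. Butyricicoccus held most of it in all groups. Butyrate formers outside the order had 5 of 11 genera with reads, all tested, which were Roseburia, Anaerostipes, Odoribacter, Lachnospiraceae_NK4A136_group and Clostridium_sensu_stricto_1. Of those 5, 1 rose in males (Clostridium_sensu_stricto_1, log2 fold change 5.49 ± 1.84, edgeR adjusted p = 0.0424) and 0 were called in females, beside the same 11.6% and 2.68% of all genera. Their summed share was 14.5% ± 6.64 in control males, 5.98% ± 5.74 in PAE males, 11.2% ± 8.02 in control females and 11.2% ± 7.79 in PAE females. The ranges overlapped in both sexes. Lachnospiraceae_NK4A136_group held most of the sum in all groups, with 12.2% ± 6.16 in control males and 4.51% ± 4.93 in PAE males. It was not called in males (log2 fold change -1.68 ± 0.86, edgeR adjusted p = 0.202). Odoribacter (-1.08) and Roseburia (-1.63) were also below 0 in males, while Anaerostipes (2.94) was above 0, as was Clostridium_sensu_stricto_1.

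Intestinimonas, which can form butyrate from lysine as well as sugars, was a genus of the control libraries. It had reads in 7 of 11 control males (3036 reads) and 5 of 7 control females (1050 reads), and in 2 of 10 PAE males and 1 of 9 PAE females, with 3 reads in each PAE group. Control males ranged from 0% to 0.193% (median 0.0670%) and control females from 0% to 0.105% (median 0.00872%), while no PAE library exceeded 0.000619%. The mean control share was 760 times the pooled share of PAE males, their 3 reads over all their kept reads (95% counting interval 260 to 3685). In females it was 351 times (120 to 1703). These intervals cover counting error only. The edgeR log2 fold changes were -9.02 ± 1.79 (adjusted p = 0.000703) and -7.82 ± 1.78 (adjusted p = 0.00982). The filter was passed through control libraries alone, so the genus had to be higher in controls to enter the test. The control libraries with 0 reads were 4, 5 and 30 to 33, so the groups overlapped in both sexes. Without the libraries apart the log2 fold changes were -8.53 (adjusted p = 0.107) and -7.97 (adjusted p = 0.0504), and with the runs as a random block -4.299 and -4.487 (adjusted p = 0.588 and 0.984).

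Different Intestinimonas variants made up the genus in the 2 runs of controls. Of its 13 variants, Intestinimonas variant 2 had 380, 254, 45 and 212 reads in control males 1, 2, 6 and 7, and 229, 24 and 15 in control females 8, 9 and 10, and 0 in all other libraries. Intestinimonas variant 1 had 684 reads in control female 34 and 697, 421 and 981 in control males 35, 36 and 37, and 0 elsewhere. Among libraries with at least 20 Intestinimonas reads, variant 2 led the genus in all 6 of controls 1 to 10 (97.4% to 100% of its reads) and variant 1 in all 4 of controls 30 to 37 (88.7% to 100%). The runs thus shared the genus but not its leading variant. Only variant 2 passed the filter, and it was called lower in males (0 of 10 PAE libraries with reads, at least 406-fold lower, edgeR adjusted p = 0.00876) and females (at least 251-fold lower, adjusted p = 0.0241). Here and below, a fold given as at least sets the mean share of 1 group against 3 reads over all kept reads of the group with 0 reads.

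Flavonifractor, which breaks down plant flavonoids and can form butyrate, followed the libraries apart. Flavonifractor variant 1 had 814, 389, 282, 751 and 382 reads in PAE males 20 to 24, and 968 and 1904 in PAE females 27 and 28. It had 0 reads in the other 30 libraries. In those 7 it held 0.119% to 0.372% of reads, and it was found together with Robinsoniella in each. The genus had 1 further variant, with 43 reads in control female 10, also a library apart. In males the genus was at least 1736-fold higher in PAE, with 5 of 10 PAE males above every control (log2 fold change 12.45 ± 2.94, edgeR adjusted p = 0.00302). The 7 PAE libraries apart met the filter by themselves, and no control male had a read. The genus thus entered the male test through PAE libraries, and its call shows only where it was found. In females it held 0.0337% ± 0.0668 in PAE and 0.00315% ± 0.00834 in controls (log2 fold change 3.74 ± 2.58, adjusted p = 0.817). Variant 1 taken alone was called higher in females too (reads in 2 of 9 PAE and 0 of 7 control females, at least 400-fold higher, log2 fold change 10.52 ± 3.37, edgeR adjusted p = 0.0378). That call was lost when any 1 of the 7 control females was left out (adjusted p up to 0.0862, with control female 34 left out). Leaving out any 1 of the 7 libraries with its reads took variant 1 below the filter, so it was then not tested in either sex. The difference between the sexes was itself not called (interaction adjusted p = 0.101). Without the libraries apart 0 reads remained, and no test was possible.

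**Figure D4:**
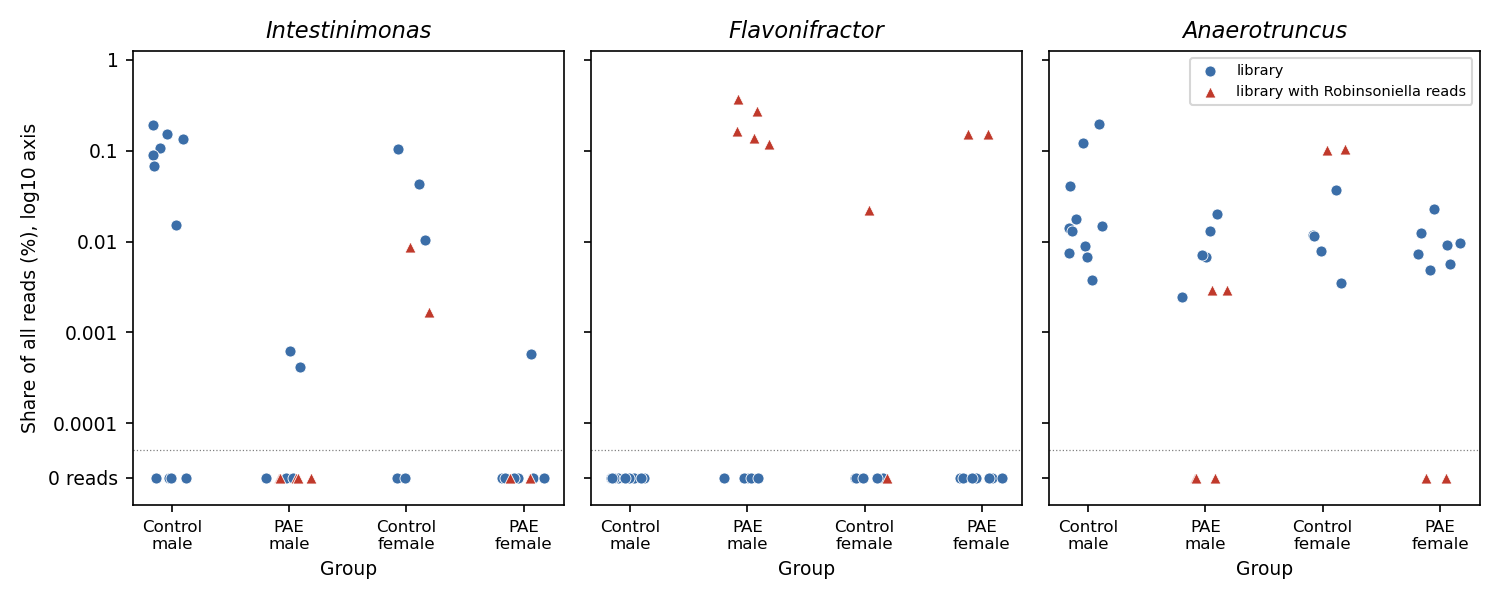
Points give the share of all reads (percent, log10 axis, libraries with 0 reads on their own line) of Intestinimonas, Flavonifractor and Anaerotruncus in each library by group, with triangles for the 9 libraries with Robinsoniella reads. No PAE library exceeds 0.000619% Intestinimonas, and every Flavonifractor value above 0 is a triangle.

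Anaerotruncus, which ferments sugars to acetate and butyrate, was found in all 18 controls and in 14 of 19 PAE libraries, and was not called by edgeR. Control males held 0.00375% to 0.197% (median 0.0142%) and PAE males 0% to 0.0199% (median 0.00294%), with 6 of 10 PAE males below and 3 of 11 control males above the whole of the other group. In females controls held 0.00345% to 0.105% (median 0.0118%) and PAE 0% to 0.0227% (median 0.00720%). The edgeR adjusted p was 0.0738 in males (log2 fold change -2.84 ± 1.05) and 0.205 in females (-3.02 ± 1.16). The high control values came from separate sources. Anaerotruncus variant 1 had 582, 777, 141 and 398 reads in libraries 34 to 37 and 0 elsewhere. Anaerotruncus variant 2, found in 32 libraries, had 187 and 197 reads in control females 3 and 10, its highest counts, and 101 or fewer in every other library. DESeq2 called the genus as a whole lower in both sexes (adjusted p = 0.00642 and 0.0479). In males edgeR called the genus with controls 30 to 37 alone (adjusted p = 0.0454) and with PAE 20 to 29 alone (0.0456). It did so too without control male 7 (0.0437) and without PAE male 19 (0.0403). Leaving out the libraries apart gave the genus a log2 fold change of -2.34 in males (adjusted p = 0.334) and -0.91 in females (adjusted p = 0.865).

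Among the genera of the order on the butyrate list, Butyricicoccus had the highest mean share, 0.640% of reads over the 37 libraries. It held 0.784% ± 1.05 in control males (0.159% to 3.75%) and 0.608% ± 0.428 in PAE males (0% to 1.25%), and 0.318% ± 0.285 in control females (0.0108% to 0.763%) and 0.748% ± 0.630 in PAE females (0% to 1.78%). The groups overlapped in both sexes (log2 fold change 0.46 ± 0.97 and 0.90 ± 1.14, edgeR adjusted p = 0.781 and 0.960). In the males the sign of the fit opposed the order of the mean shares, and it turned in 6 of 14 alternatives, to -0.40 without the libraries apart (adjusted p = 0.811). Its variants differed between libraries that had like shares. Butyricicoccus variant 4 had 6719, 2243 and 2546 reads in PAE males 20, 21 and 22 and 0 in the other 34 libraries. It was the only Butyricicoccus variant in those 3 libraries, at 100% of the genus. Over the 33 libraries with at least 20 reads of the genus, variant 1 led in 15 and variant 3 in 12. PAE males 23 and 24 and PAE females 27 and 28 had almost none, from 0% to 0.00505%.

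None of the large Oscillospiraceae genera was called. Oscillibacter was not on the butyrate list and averaged 0.793% of reads over all libraries. Oscillibacter, whose members form valerate or butyrate, held 1.19% ± 0.69 in control males and 0.458% ± 0.579 in PAE males, with 7 of 10 PAE males, 5 of them libraries apart, below every control (log2 fold change -1.75 ± 1.07, edgeR adjusted p = 0.288). In females it held 0.650% ± 0.511 in controls and 0.791% ± 0.636 in PAE (adjusted p = 0.970). Colidextribacter held 0.922% ± 0.316 in control males and 0.507% ± 0.436 in PAE males (log2 fold change -0.91 ± 0.53, adjusted p = 0.260), and 0.448% ± 0.253 and 0.655% ± 0.340 in control and PAE females (adjusted p = 0.960). Variants of the family without a genus name held 1.68% ± 0.76 in control males and 0.843% ± 0.883 in PAE males (adjusted p = 0.241), and 0.846% ± 0.572 and 1.44% ± 0.92 in females (adjusted p = 0.960). The male log2 fold changes without the libraries apart were -0.68 for Oscillibacter, -0.25 for Colidextribacter and -0.23 for unclassified Oscillospiraceae. UCG-003, UCG-009 (a Butyricicoccaceae lineage) and NK4A214_group, codes for uncultured lineages, averaged 0.0459%, 0.0461% and 0.0303% of reads over all libraries, and none was called.

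Genera of Ruminococcaceae were likewise not called. The [Eubacterium]_siraeum_group, named after a fibre-degrading species, held 0.399% ± 0.364 in control males, 0.628% ± 0.585 in PAE males, 0.382% ± 0.558 in control females and 0.269% ± 0.352 in PAE females (edgeR adjusted p = 0.634 and 0.960). Ruminococcus, which holds degraders of cellulose and resistant starch, held 0.278% ± 0.273, 0.216% ± 0.171, 0.195% ± 0.195 and 0.241% ± 0.195 in the same order (adjusted p = 0.974 and 0.960). Of the other cellulose degraders looked for, Ruminiclostridium had 63 reads, which the taxonomy placed outside the order, and Acetivibrio had 0. Ruminococcaceae variants without a genus name held 0.563% ± 0.307 in control males, 0.352% ± 0.461 in PAE males, 0.619% ± 0.515 in control females and 0.452% ± 0.284 in PAE females (adjusted p = 0.530 and 0.935). Incertae_Sedis, the unplaced genus of the family, held 0.209% ± 0.079, 0.160% ± 0.095, 0.427% ± 0.383 and 0.251% ± 0.142 (adjusted p = 0.874 and 0.446). The taxon whose genus field repeats the name Ruminococcaceae had reads in 17 libraries and in 0 of controls 30 to 37 (adjusted p = 0.803 and 0.960). Signs turned without the libraries apart in unclassified Ruminococcaceae (from -0.91 to 0.10 in males and from -0.98 to 0.46 in females), Ruminococcus (from 0.05 to -0.26 and from 0.40 to -0.16) and, in females, Incertae_Sedis (from -1.28 to 0.17). So did that of Paludicola in males, from 1.59 to -0.54. Paludicola, Harryflintia, Candidatus_Soleaferrea and unclassified Oscillospirales averaged 0.0272%, 0.0142%, 0.000982% and 0.00163% of reads, and none was called.

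**Figure D5:**
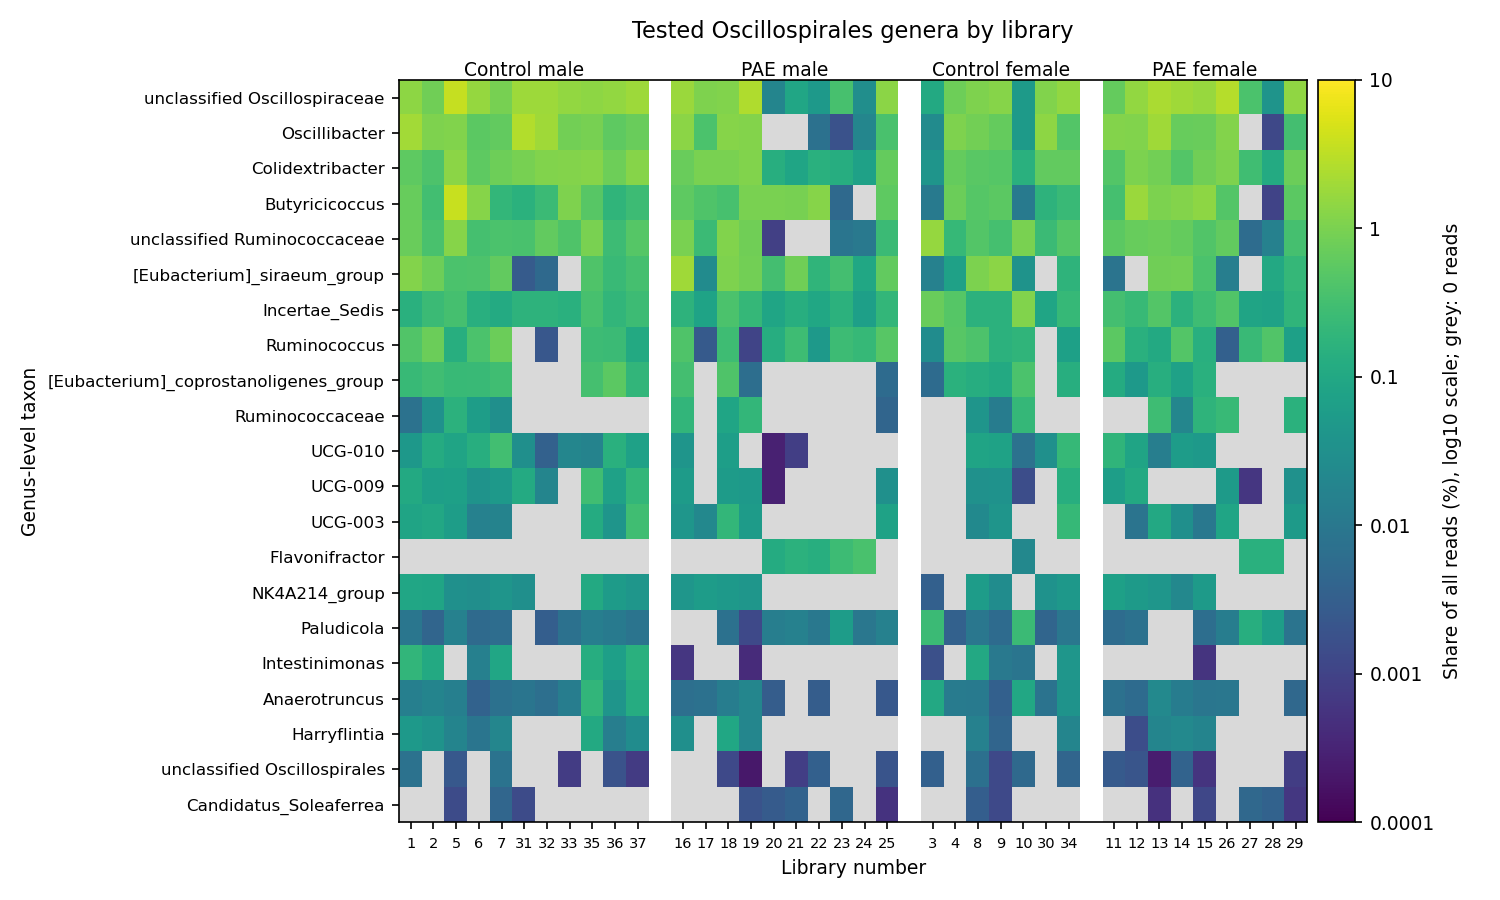
The heat map gives the share of all reads (log10 colour scale, grey for 0 reads) of the 21 tested genera, in order of mean share, in each library by group. PAE males 20 to 24 and PAE females 27 and 28 are all grey for Harryflintia, Intestinimonas, NK4A214_group, UCG-003 and the [Eubacterium]_coprostanoligenes_group, and all coloured for Flavonifractor, Ruminococcus, Incertae_Sedis, Colidextribacter and Paludicola.

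At the level of single variants 106 of 646 passed the filter, with 91.1% of the order's reads, among 553 tested over all bacteria. In males 1 was called higher and 6 lower in PAE, against 12.1% of all variants called. In females 2 were called higher and 10 lower, against 12.3%. The median log2 fold change of the 106 was -1.10 in males, beside -0.71 over all 553, and 0.21 in females, beside 0.26. All 6 lower variants in males, and 6 of the 10 in females, had no PAE reads and passed the filter through control libraries alone. Flavonifractor variant 1, called higher in both sexes, had no control reads and passed through PAE libraries alone. Over both sexes 6 of the 106 passed in the first way and 1 in the second. The other 4 lower in females had some PAE reads, but in too few PAE libraries to pass without the controls. Incertae_Sedis variant 8, called higher in females, was in too few controls to pass without the PAE libraries. All these variants entered the test through the exposure where they were called higher. Their counts show where they were found rather than support a shift of the order. Without the libraries apart edgeR called 0 members in either sex, beside 1 in males and 0 in females of 527 variants over all bacteria. At an unadjusted p under 0.05 there were 6 members in males and 12 in females, beside 57 and 87 of the 527. With the runs as a random block 0 members were called.

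Variants called lower in both sexes were each found in controls and had 0 reads in all 19 PAE libraries. Unclassified Oscillospiraceae variant 11 had reads in all 8 of controls 30 to 37, from 158 in control male 32 to 1739 in control female 34, and 0 in all of controls 1 to 10. It was at least 434-fold lower in PAE males (edgeR adjusted p = 0.00528) and at least 268-fold lower in PAE females (adjusted p = 0.0185). Oscillibacter variant 15, with 18 to 133 reads in the same 8 libraries, and unclassified Oscillospiraceae variant 32, with 19 to 204 reads in 7 of them, were likewise at 0 in the other 29 or 30 libraries. The adjusted p of Oscillibacter variant 15 was 0.00751 in males and 0.0262 in females. For these 3 variants one run of controls was the whole of the difference, since controls 1 to 10 had 0 reads as did the PAE libraries. Unclassified Ruminococcaceae variant 11 crossed both runs. It had 7 to 118 reads in control males 1, 5, 6 and 7 and control females 8 and 9, and 120 to 406 in libraries 34 to 37 (at least 183-fold lower in PAE males, adjusted p = 0.00521, and at least 155-fold lower in PAE females, adjusted p = 0.0185). Unclassified Oscillospiraceae variant 25 did so as well, with reads in control males 1 and 2, control female 10 and libraries 34 to 37 (adjusted p = 0.00785 in males and 0.0241 in females).

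Other variants were called in 1 sex. [Eubacterium]_coprostanoligenes_group variant 3 had 10 to 2454 reads in 5 of 7 control females and 0 in all 9 PAE females (at least 1482-fold lower, edgeR adjusted p = 0.0185). The same variant had 237 and 383 reads in control males 1 and 2, and 230 and 678 in PAE males 16 and 18, and was not called in males. Colidextribacter variant 20 had 50, 28 and 46 reads in control females 8, 9 and 30 and 0 in PAE females (adjusted p = 0.0208). Both variants met the filter through control libraries of the 2 sexes, and in too few PAE libraries to pass by those. Incertae_Sedis variant 8 ran the other way. It had 43, 108, 178, 41 and 115 reads in PAE females 11 to 15 and 0 in all control females (at least 224-fold higher, adjusted p = 0.0294). The variant met the filter through PAE libraries and not through controls, so this call shows only where it was found. In males it had 14 to 50 reads in PAE males 16, 18 and 19 and 146 to 289 in control males 31, 32 and 33, and was not called.

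The variant that led a genus changed from library to library more in some genera than in others. Paludicola, UCG-009 and UCG-010 each had the same leading variant wherever the genus had at least 20 reads (20, 21 and 21 libraries). Ruminococcus variant 1 led in 28 of 30 libraries with 97.2% to 100% of the genus. Colidextribacter had 11 different leaders over 37 libraries, and unclassified Oscillospiraceae had 9. In Oscillibacter, variant 3 led in 8 of 10 libraries of controls 1 to 10 and in 0 of 8 of controls 30 to 37, where variants 1 and 2 led in 4 each. In libraries 30 to 33 Oscillibacter variant 1 had 2592 to 10500 reads, its highest counts in the series. The [Eubacterium]_siraeum_group was likewise led by variant 2 in all 4 of controls 30 to 37 with at least 20 reads (99.7% to 100%), and by variants 1 or 3 in all 10 of controls 1 to 10 and all 7 of PAE 11 to 19. The [Eubacterium]_coprostanoligenes_group had variant 1 as leader in 3 of 4 such libraries of controls 30 to 37 and in none elsewhere. UCG-005 had reads in libraries 34 to 37 alone. Variants thus differed between the 2 runs of controls as they did between controls and PAE, and the part of the run in the exposure comparison cannot be told apart.

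A few variants were present almost everywhere. Colidextribacter variant 2 had reads in all 37 libraries, from 0.00338% to 0.290% (median 0.0869%), and Ruminococcus variant 1 in 34. Another 10 variants had reads in 30 to 32 libraries, among them Oscillibacter variant 2, Butyricicoccus variant 1 and Paludicola variant 1. In the 9 libraries apart the median share of Colidextribacter variant 2 was 0.111%, beside 0.0841% in the other 28. For Ruminococcus variant 1 the medians were 0.221% and 0.146%, and for Paludicola variant 1 0.0574% and 0.00553%. These 3 were in all 9 libraries apart, whereas each of the other 9 widespread variants was in 2 to 4 of them.

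The 7 PAE libraries apart held 38 of the order's variants between them, counted at unequal depth. Flavonifractor variant 1 and Butyricicoccus variant 4 had no read in the 28 libraries not apart. Any further variants without a read there were each in 1 of the 7, with 14 reads or fewer. The same counts over all bacteria are not given here, so these are a description. Variants present in all 7 were Ruminococcus variant 1, Flavonifractor variant 1, Colidextribacter variant 2, unclassified Oscillospiraceae variant 5, Incertae_Sedis variant 2 and Paludicola variant 1. Colidextribacter variant 2 led its genus in all 7, as did unclassified Oscillospiraceae variant 5 and Incertae_Sedis variant 2 theirs. Unclassified Oscillospiraceae variant 5 held 0.0190% to 0.338% there, and its median in the 28 libraries not apart was 0%. [Eubacterium]_siraeum_group variant 1 was in 6 of the 7, at up to 0.830%. By contrast unclassified Oscillospiraceae variant 1, the most abundant variant of the order, had 23 reads over the 7, and its median share in the other 12 PAE libraries was 0.412%.

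No member genus was called between the sexes. Among controls 0 of 21 genera were called between males and females, against 4.46% of all genera. DESeq2 called 3 of the 21 and 11 of all 112 genera, and 3 members had an unadjusted edgeR p under 0.05, beside 14 of all 112. Paludicola held 0.00768% in control males and 0.0781% in control females (edgeR adjusted p = 0.0804), and the female mean included control females 3 and 10, at 0.252% and 0.262%. The log2 difference of Paludicola between control males and females went from -3.97 to -0.0423 without the libraries apart. Among PAE libraries 0 of 21 were called, against 0.0% of all genera. DESeq2 called 0 as well, beside 2 of all 112, and 0 had an unadjusted edgeR p under 0.05, beside 9 of all 112. The exposure effect differed between sexes for 0 of 21 genera, against 3.57% of all genera. Flavonifractor alone of the 21 had an unadjusted edgeR p under 0.05, beside 12 of all 112 genera. DESeq2 called 1 of the 21 and 7 of all 112 genera. For the whole order the interaction log2 fold change was -0.45 ± 0.50 (adjusted p = 0.735).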

How the data were processed

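Stool 16S rRNA gene amplicons were measured in 37 libraries. The deposited table holds raw read counts per sequence variant, and a deposited taxonomy table (other, text) names each variant. Cutadapt, Bowtie2 and the build GRCm39 stand in the submitters' processing notes without a role. Which denoiser, classifier and taxonomy were used is not given in the sources used here. Rows without taxonomy, unassigned, eukaryotic, chloroplast or mitochondrial were dropped, leaving 6085 of 6100 variants. Counts were summed by genus, family and order and tested over all bacteria with edgeR 4.0.16 (quasi-likelihood, TMM, Benjamini-Hochberg; R 4.3.3) on all 4 groups, after a filter of 5 reads or more in 7 or more libraries. DESeq2 1.42.0, limma 3.58.1, other filters and left-out libraries were alternatives. The members and lists were chosen with earlier results of these data known. Up to 4 called variants per direction and comparison and the 6 of highest share were to be named, and variants described for their genus or run were chosen after their values were seen. Variants are numbered within a genus by reads. The identifiers are not sequences, so none is shown.

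Tested on simulated data for the male comparison, 64-fold changes were called in 9 of 10 genera and 65 of 95 variants, and 4-fold changes in 0 of 10 and 3 of 94. Of the unchanged taxa, 0 of 84 genera and 8 of 328 variants were called. The simulated taxa were drawn independently, without runs of libraries or a set apart, so these rates need not hold for the real libraries.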

Additional observations from a re-analysis of the deposited data

Results flagged for a closer look

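In 14 of 75 groups of shares tested (18.7%), the extreme library lay far from the rest of its group by Dixon's criterion. The criterion flags about 1 in 20 groups of normally distributed values. Shares are skewed and often 0, so the 18.7% cannot be read as an excess over that rate. Control males were too many to test. Control female 34 held 0.224% UCG-010 (next 0.0815%), 0.220% UCG-003 (next 0.0410%) and 0.138% UCG-009 (next 0.0349%). Control female 10 held 0.391% of the [Eubacterium]_coprostanoligenes_group (next 0.158%) and 0.0221% Flavonifractor (next 0%). Control female 8 held 0.105% Intestinimonas (next 0.0425%) and 0.00313% Candidatus_Soleaferrea (next 0.00129%).

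PAE male 18 held 0.388% Incertae_Sedis (next 0.210%), 0.201% UCG-003 (next 0.0748%) and 0.0937% Harryflintia (next 0.0303%). Paludicola reached 0.0574% in PAE male 23 (next 0.0161%) and 0.139% in PAE female 27 (next 0.0637%). PAE female 11 held 0.187% UCG-010 (next 0.0843%). PAE female 15 held 0.000571% Intestinimonas, its 3 reads being the only ones among PAE females.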

How the results depend on the processing

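The whole order's log2 fold change turned sign in males with PAE 11 to 19 alone (0.0191), and in females with library totals (0.25), the stricter filter (0.0887), the libraries of 1 exposure or sex alone (0.0689), controls 1 to 10 alone (0.11), PAE 11 to 19 alone (0.47) and without the 9 libraries apart (0.48). Leaving out 1 library at a time gave -0.13 to 0.26 in females. The last alternative was chosen after seeing the data; the causes were not tested.

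Families called in males were 1 with limma on centred log-ratios, the looser filter or controls 30 to 37 alone and 3 with PAE 20 to 29 alone, which gave 2 in females. Over all bacteria, centred log-ratios called 8 of 60 families in males and controls 30 to 37 alone 11 of 56. PAE 20 to 29 alone called 9 of 60 in males and 4 of 60 in females. Genera called in males were 4 with DESeq2, 5 on centred log-ratios, 6 with the looser filter, 7 with PAE 20 to 29 alone and 1 with males alone or controls 1 to 10 alone. They were 0 with the runs as a random block, the stricter filter, PAE 11 to 19 alone and without the libraries apart. In females they were 2 with DESeq2, 3 with PAE 20 to 29 alone, and 0 on centred log-ratios, with females alone, controls 30 to 37 alone and the 4 settings that gave 0 in males. Over all bacteria, DESeq2 called 21 of 112 genera in males and 6 of 112 in females, and centred log-ratios 30 and 1 of 112. PAE 20 to 29 alone called 23 and 7 of 110, and controls 1 to 10 alone 2 of 101 in males. The interaction gave 1 with DESeq2 and 2 with the looser filter. Between control sexes 3 were called by DESeq2, 2 with either filter and 1 with controls alone.

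Variants called in males were 12 on centred log-ratios, 86 with the looser filter, 1 with males alone or controls 1 to 10 alone, 14 with controls 30 to 37 alone (11 higher, beside 143 called over all bacteria, 100 of them higher) and 23 with PAE 20 to 29 alone (beside 113 over all bacteria). In females they were 1 on centred log-ratios, 68 with the looser filter, 0 with females alone, 1 with controls 1 to 10 alone, 3 with controls 30 to 37 alone and 2 with PAE 20 to 29 alone. Both sexes had 0 with the random block, the stricter filter, PAE 11 to 19 alone and without the libraries apart. Leaving out 1 library gave 5 to 12 in males and 4 to 13 in females. No paired analysis was possible because the library numbers are not shared between groups.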
